A study of Mus musculus with 12 samples.

Results

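Integrin subunit genes were followed in CD4 and CD8 T cells of lymph nodes (LN), in a study that asked whether the gene loci of the coreceptors or the coreceptor proteins decide if a T cell becomes helper or cytotoxic. The 9 genes were chosen by name: the β subunit genes Itgb1, Itgb2, Itgb3, Itgb7 and Itgb8 and the α subunit genes Itga4, Itga6, Itgal and Itgav. All 9 were found by symbol among the 12809 genes of the deposited table, and all 9 passed the filter of at least 1 CPM (read counts scaled to the size of the library) in at least 3 libraries. RNA sequencing covered 4 groups of 3 libraries each, CD4 and CD8 T cells of B6 and of FlipFlop mice, sorted from LN of female animals. B6 is the C57BL/6 strain with unaltered coreceptor loci, here at 10 weeks of age. In FlipFlop mice, here at 14 weeks, the Cd8a loci encode CD4 proteins and the Cd4 loci encode CD8αβ.1 proteins, so that every FlipFlop T cell carries both altered loci. Age therefore moves with strain in the labels, and the effects of strain and age cannot be told apart. The Cd8a allele that encodes CD4 was made in embryonic stem cells of a 129 strain, and the other allele in cells of B6 origin. Both altered loci lie on chromosome 6, which holds none of the 9 genes. The paper puts a few departures of FlipFlop T cells from the reversed pattern down to strain 129 genes that these mice retained. Whether any of the 9 genes lies in retained 129 sequence was not tested. Neither labels nor methods say whether a library is 1 mouse or a pool, so p-values measure the spread between these libraries, which may be technical.

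An integrin is a receptor made of 1 α and 1 β chain that holds a cell to its neighbours or to the matrix, and the pairing of the chains sets what it binds. The αL chain (Itgal) and the β2 chain (Itgb2) form LFA-1, which binds ICAM proteins on vessels and antigen-presenting cells. The α4 chain (Itga4) pairs with β1 (Itgb1) to bind VCAM-1 and fibronectin, or with β7 (Itgb7) to bind MAdCAM-1 on vessels of the gut. The α6 chain (Itga6) with β1 binds laminin. The αv chain (Itgav) pairs with β3 (Itgb3) to bind vitronectin and other matrix proteins, and with β8 (Itgb8) to bind and activate latent TGF-β, a step in which regulatory T cells are known to take part.

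Libraries held 26570285 to 33115728 reads on the listed genes, so that 3 reads, the limit that a count of 0 allows, correspond to 0.0857 to 0.120 CPM. Zbtb7b, which encodes the helper-lineage factor ThPOK, was at 192 to 203 CPM in B6 CD4 and 162 to 172 in FlipFlop CD8 T cells, against 1.16 to 1.99 in B6 CD8 and 1.87 to 2.79 in FlipFlop CD4 T cells. B6 CD4 and FlipFlop CD8 T cells are therefore called helper-lineage and the other groups cytotoxic-lineage. Cd4 was at 961 to 1090 CPM in B6 CD4, 637 to 719 in FlipFlop CD4, 40.9 to 43.6 in FlipFlop CD8 and 0.600 to 2.40 in B6 CD8 T cells, and the T cell marker Cd3e was at 336 to 410 CPM in all 12 libraries. B6 CD4 replicate 1 stood apart from its group mates, with a mean root-mean-square distance of 0.404 on the log2 scale where the other libraries had 0.250 to 0.351. In it all members but Itgb2 and Itgb7 had the lowest value of their group. Counts that depend on this library are given with and without it.

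Other cell types were traced by marker lists. None of the 5 platelet markers, Itga2b among them, was in the table. The 6 B cell markers summed to 35.8 to 68.6 CPM in all libraries and the 6 myeloid markers found in the table to 8.1 to 31.9. Of these 6, 3 were called higher in the helper-lineage groups, where 19.9% of all genes were called higher. Itgam is among the 3, and it reached 1 CPM in 3 libraries of the helper lineage alone, which favoured a difference. The 4 NK cell markers found summed to 11.2 to 13.9 CPM in B6 CD4 and 23.1 to 95.8 in the other groups. The 4 red blood cell markers found summed to 15.9 to 28.8 CPM in B6 and 6.7 to 14.2 in FlipFlop T cells. All 9 regulatory T cell markers were called higher in the helper-lineage groups, against 19.9% of all genes. Of the 9, 8 were called higher in FlipFlop than in B6 groups, against 15.8% of all genes. Lrrc32, 1 of the 9, passed the filter through helper-lineage libraries alone and so had to differ between lineages. The sum of the 9 was 1138 to 1328 CPM in FlipFlop CD8 and 476 to 571 in B6 CD4 T cells, and 76.5 to 80.8 in FlipFlop CD4 and 66.0 to 73.5 in B6 CD8 T cells. Foxp3, which defines these cells, was at 93.1 to 128 CPM in B6 CD4 and 305 to 362 in FlipFlop CD8 T cells. The 9 markers of memory or effector T cells summed to 1493 to 1693 CPM in B6 CD8, 1053 to 1481 in FlipFlop CD8, 799 to 963 in FlipFlop CD4 and 440 to 572 in B6 CD4 T cells. In these bulk samples fewer cells of a type and less RNA per cell cannot be told apart.

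Per length of exon (CPM per kb, mean of 12 libraries), the leukocyte integrins led: Itgb7 had 322, Itgb2 203 and Itgal 122.9 CPM per kb. Itgb1 followed with 41.1, Itga4 with 21.9, Itga6 with 18.7 and Itgb3 with 16.8 CPM per kb. Itgav had 2.49 and Itgb8 0.364 CPM per kb. On this scale the α chains were below the β chains that pair with them, except that Itgav was above Itgb8. That order depends on scaling by the union of annotated exons. In mean CPM, Itgal (808) was above Itgb2 (618) and Itga4 (307) above Itgb1 (168), with Itga6 at 169. Itga4 stayed below Itgb7 (893), and Itgav (26.8) below Itgb3 (99.0). The range between libraries was narrowest at the top of this order: the highest library was 1.33 times the lowest for Itgb7, 1.42 times for Itgb2 and 6.91 times for Itgb3. It was widest for Itgb8, at 401 times, where the lowest library held 1 read.

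**Figure D1:**
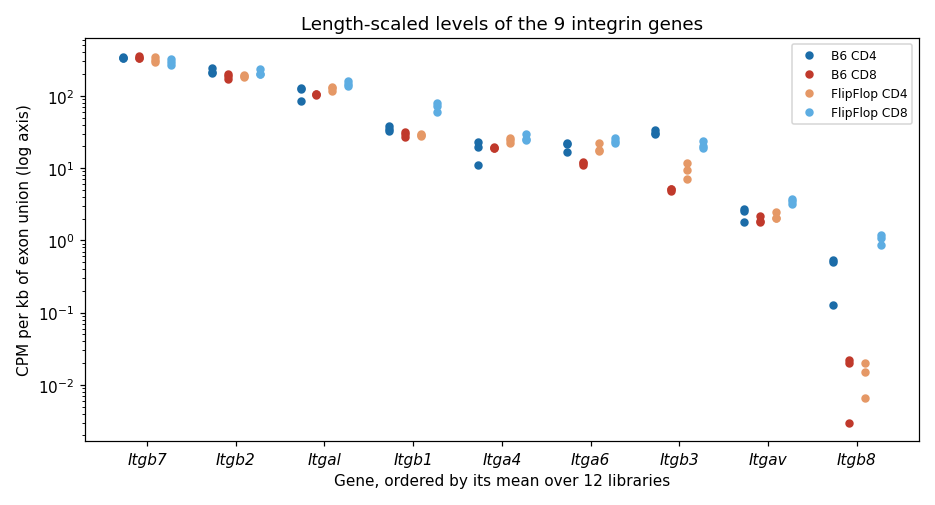
Levels of the 9 integrin genes in CPM per kb of exon union on a log axis, 1 point for each of 12 libraries, coloured by group, with genes ordered by their mean. Itgb7, at a mean of 322 CPM per kb, lies above all other members, and the Itgb8 points of B6 CD8 and FlipFlop CD4 T cells lie far below those of the other groups.

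Promoter sequences were held by the RefSeq table used for 5 of the 9 genes, Itga4, Itgav, Itgb1, Itgb7 and Itgb8. Sequence is shown for Itgb1 and Itgav, the matched genes that passed the test of the lineage effect described next and whose window lies outside annotated exons, and for Itga4, which did not pass it. Each run gives the 250 bases before the start of the gene on the sense strand in build GRCm38.p6, with matches to the Runx core TGTGGT and to the GC box GGGCGG, on either strand, in capitals. The windows lie at chr8:128685404-128685653 for Itgb1, chr2:83724147-83724396 for Itgav and chr2:79255176-79255425 for Itga4, all on the plus strand.
Itgb1: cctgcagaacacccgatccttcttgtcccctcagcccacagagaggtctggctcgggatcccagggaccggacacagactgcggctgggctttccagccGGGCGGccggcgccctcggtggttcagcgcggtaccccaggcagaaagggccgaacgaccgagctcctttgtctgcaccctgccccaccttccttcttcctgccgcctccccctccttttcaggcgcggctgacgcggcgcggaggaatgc
Itgav: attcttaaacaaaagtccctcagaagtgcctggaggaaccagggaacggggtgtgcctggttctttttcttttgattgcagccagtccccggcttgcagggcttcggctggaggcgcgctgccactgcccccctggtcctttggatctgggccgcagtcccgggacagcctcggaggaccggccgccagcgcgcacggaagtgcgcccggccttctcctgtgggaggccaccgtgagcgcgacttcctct
Itga4: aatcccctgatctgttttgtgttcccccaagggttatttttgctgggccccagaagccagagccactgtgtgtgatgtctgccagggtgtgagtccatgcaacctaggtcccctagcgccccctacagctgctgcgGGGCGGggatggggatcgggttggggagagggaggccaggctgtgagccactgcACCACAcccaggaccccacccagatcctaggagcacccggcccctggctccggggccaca
Of the 5 promoters, searched from 250 bases before to 50 bases after the start, Itga4 alone held the Runx core, which 16.8% of 32851 promoters hold. The GC box was found in Itga4, Itgb1 and Itgav, the last of these after the start, and 35.7% of all promoters hold it. These are matches of letters and were not tested as binding sites. The GC content of the 250 bases shown was 68.0% for Itgb1, 64.4% for Itgav and 64.0% for Itga4, against a median of 52.4% over all promoters.

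Within B6 mice 3 of the 9 genes passed the test of CD4 against CD8 T cells, all higher in CD4 T cells: Itgb3, Itgb8 and Itga6. The test throughout was limma on log2(CPM + 0.5) with Benjamini-Hochberg adjustment over 11595 genes, at an adjusted p under 0.05, and it called 25.4% of all genes in this comparison and 14.6% as higher. Itgb8 passed the filter on low values only through its B6 CD4 and FlipFlop CD8 libraries, so it had to differ here, and without it 2 of 8 genes were called, a share like that of all genes. The log2 difference was 2.63 ± 0.14 (SE) for Itgb3, 2.68 ± 0.37 for Itgb8 and 0.79 ± 0.12 for Itga6. Itgb1 and Itgb2 had higher values in all 3 B6 CD4 than in all 3 B6 CD8 libraries but missed the threshold, with adjusted p = 0.0796 and 0.0503. Over all tested genes, 37.8% had B6 groups that did not overlap. Without B6 CD4 replicate 1 the count was 7, with Itgb1, Itgb2, Itgal and Itgav added, where 27.7% of all genes were called.

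In FlipFlop mice 4 of the 9 genes passed, all of them lower in CD4 than in CD8 T cells: Itgb8, Itgb1, Itgb3 and Itgav. Of all genes 31.3% were called and 16.0% were called lower. Without Itgb8, which had to differ here too, 3 of 8 members were called. The log2 difference was -4.19 ± 0.37 for Itgb8, -1.30 ± 0.10 for Itgb1, -1.19 ± 0.14 for Itgb3 and -0.68 ± 0.15 for Itgav. Itga6 missed the threshold at -0.34 ± 0.12 (adjusted p = 0.0511). It passed with same-numbered FlipFlop libraries paired in a replicate block (adjusted p = 0.0328), which made the count 5, where 36.4% of all genes were called. Without B6 CD4 replicate 1 in the fit 6 were called, with Itga6 and Itgal added, where 38.2% of all genes were called. No member was called higher in CD4 than in CD8 FlipFlop T cells.

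The lineage effect sets the helper-lineage groups (B6 CD4 and FlipFlop CD8) against the cytotoxic-lineage groups (B6 CD8 and FlipFlop CD4), and by construction it also measures by how much the CD4 to CD8 difference differs between the strains. It was called for 6 of the 9 genes, all higher in the helper lineage, where 39.3% of all genes were called and 19.9% were called higher. The median log2 difference was 0.47 over the members and -0.03 over all tested genes. The effect was 3.43 ± 0.26 for Itgb8, 1.91 ± 0.10 for Itgb3, 0.78 ± 0.07 for Itgb1, 0.57 ± 0.09 for Itga6, 0.47 ± 0.10 for Itgav and 0.20 ± 0.06 for Itgb2. Itgal, Itga4 and Itgb7 were not called, with 95% intervals of -0.05 to 0.35, -0.32 to 0.28 and -0.18 to 0.08. Itgb8 had to differ in this contrast as well and is part of the median of 0.47. Without it the count was 5 of 8, with effects from -0.05 to 1.91 over these 8. Without B6 CD4 replicate 1 Itgal was called too, which made 7 of the 9, where 45.2% of all genes were called.

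**Figure D2:**
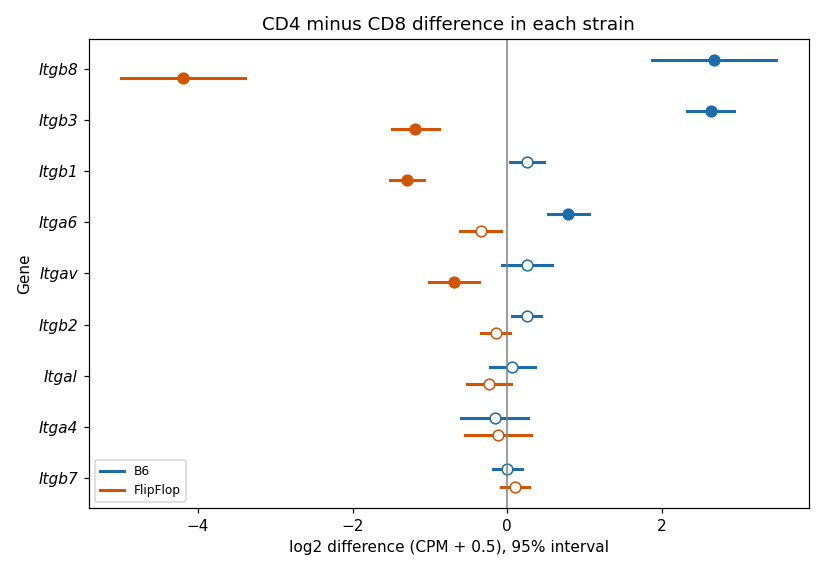
Log2 difference (CPM + 0.5) between CD4 and CD8 T cells for the 9 integrin genes in B6 (blue) and FlipFlop mice (orange), with bars for 95% intervals and filled points for genes with an adjusted p under 0.05. Itgb8 and Itgb3 lie right of 0 in B6 at 2.68 and 2.63 and left of it in FlipFlop mice at -4.19 and -1.19, while both Itgb7 intervals cover 0.

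The coreceptor effect, CD4 against CD8 T cells averaged over strains, was called for 2 of the 9 genes, against 5.49% of all genes. Itgb3 was higher in CD4 T cells by 0.72 ± 0.10 (log2) and Itgb1 was lower by a log2 difference of -0.52 ± 0.07. In both, the CD4 and CD8 libraries overlapped, and the 2 strains had CD4 to CD8 differences of opposite sign and unequal size, as given above. Without B6 CD4 replicate 1 Itga6 was also called, where 5.11% of all genes were called.

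Comparing groups of the same lineage across strains, FlipFlop CD4 T cells differed from B6 CD8 T cells in 2 of the 9 genes, where 7.92% of all genes were called. Both were higher in FlipFlop CD4 T cells, Itgb3 by 0.87 ± 0.14 and Itga6 by 0.71 ± 0.12 (log2). Without B6 CD4 replicate 1 in the fit Itga4 and Itgal were called too, where 13.6% of all genes were called. In the helper lineage, FlipFlop CD8 T cells differed from B6 CD4 T cells in 6 of the 9, against 27.6% of all genes. Itgb8 (1.498 ± 0.37), Itgb1 (0.995 ± 0.10), Itga4 (0.62 ± 0.20), Itgav (0.59 ± 0.15) and Itgal (0.42 ± 0.13) were higher in FlipFlop CD8 T cells, and Itgb3 was lower (-0.58 ± 0.14). This count rested on single libraries. It fell to 5 without B6 CD4 replicate 1, where Itgal lost its call, to 1, Itgb1, without FlipFlop CD8 replicate 3, and to 2, Itgb1 and Itgb3, in a fit of the 6 libraries compared. The share of all genes called fell as well, to 18.3%, 13.3% and 12.9% in the same order. Itga4 lost its call without any 1 of 7 libraries (adjusted p = 0.0502 to 0.127).

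**Figure D3:**
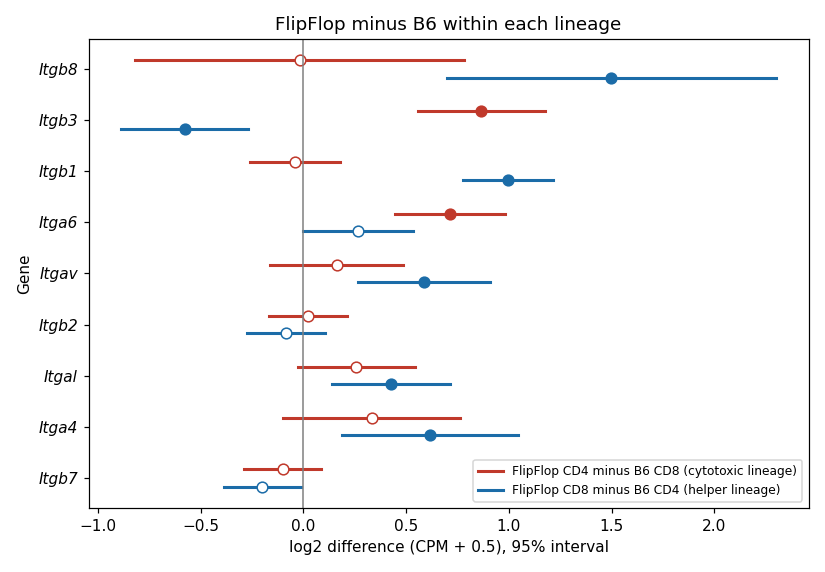
Log2 difference (CPM + 0.5) between FlipFlop and B6 T cells of the same lineage for the 9 integrin genes, with 95% intervals and filled points for an adjusted p under 0.05, in the cytotoxic lineage (red) and the helper lineage (blue). Itgb3 lies at 0.87 in the cytotoxic and at -0.58 in the helper lineage, and the Itgb1 interval clears 0 in the helper lineage, where it lies at 0.995.

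Between cells with the same coreceptor protein, a comparison added after the data had been seen, FlipFlop CD4 T cells had less Itgb8 (-2.69 ± 0.37), Itgb3 (-1.77 ± 0.14) and Itgb1 (-0.30 ± 0.10) than B6 CD4 T cells on the log2 scale, 3 of the 9 genes (2 of 8 without Itgb8) against 28.4% of all genes. The Itgb1 call among these was lost without any 1 of 7 libraries (adjusted p = 0.0538 to 0.134). It was also lost with median-of-ratios rescaling and without eBayes. FlipFlop CD8 T cells had more Itgb8 (4.17 ± 0.37), Itgb3 (2.05 ± 0.14), Itgb1 (1.26 ± 0.10), Itga6 (1.06 ± 0.12), Itgav (0.84 ± 0.15) and Itgal (0.49 ± 0.13) than B6 CD8 T cells. That made 6 of the 9 genes (5 of 8 without Itgb8), where 44.7% of all genes were called and 21.3% were called higher. Without B6 CD4 replicate 1 Itga4 made 7, where 52.8% of all genes were called. The strain effect, FlipFlop against B6 over both cell types, was called for 6 of the 9 genes, all higher in FlipFlop T cells (31.2% of all genes were called and 15.8% were called higher): Itgb8 (0.74 ± 0.26), Itga6 (0.49 ± 0.09), Itgb1 (0.48 ± 0.07), Itga4 (0.47 ± 0.14), Itgav (0.37 ± 0.10) and Itgal (0.34 ± 0.09). Itgb8, Itga4 and Itgav lost the call without FlipFlop CD8 replicate 3 or in a linear model without eBayes, which left 3. The share of all genes called fell as well, to 20.7% and 25.5% in the same order. The call of Itgb8 (adjusted p = 0.0479) was also lost with a pseudocount of 0.1 (0.103) and without any 1 of 9 libraries (0.0525 to 0.107).

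**Figure D4:**
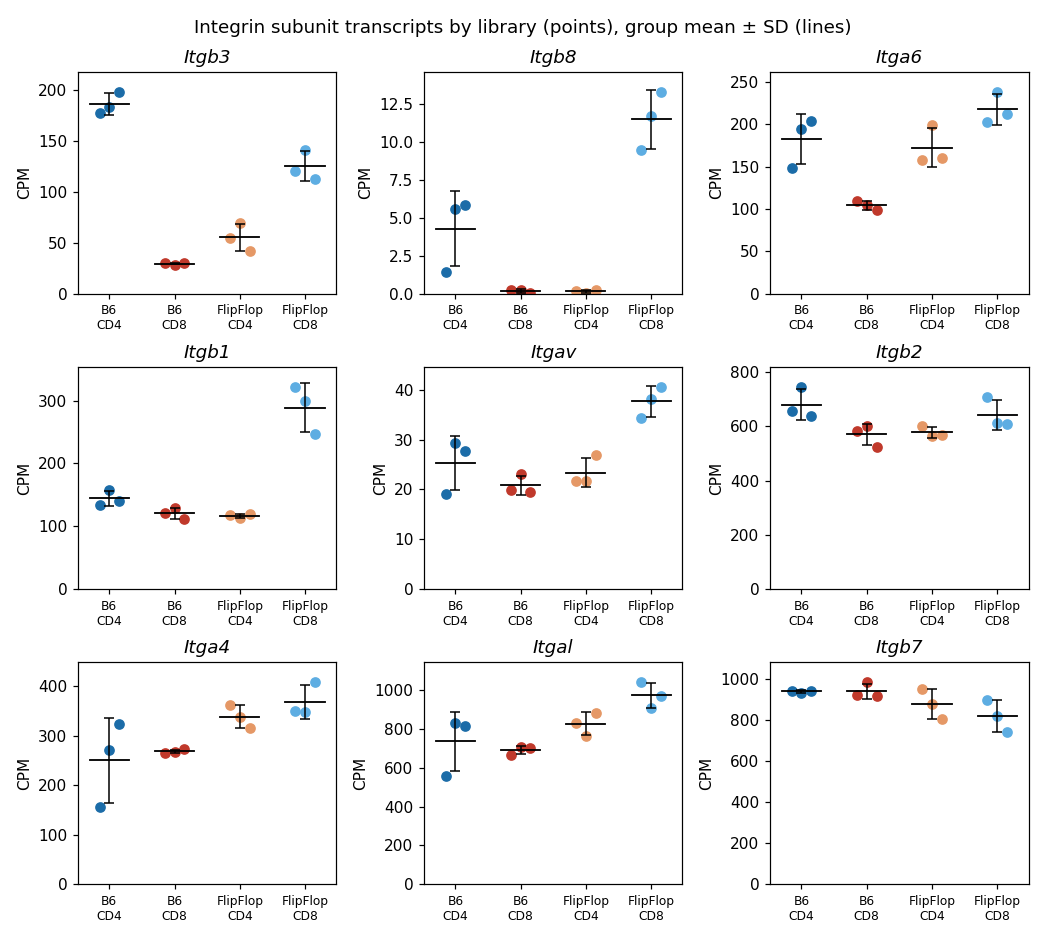
CPM of each integrin gene in each of 12 libraries (points) with the group mean (horizontal line) and SD (error bar), 1 panel per gene with an axis from 0. FlipFlop CD8 T cells have the 3 highest libraries for Itgb1, Itgb8, Itgal and Itgav, while for Itgb3 they lie at 113 to 142 CPM between B6 CD4 and FlipFlop CD4 T cells.

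Itgb3 (chr11:104608000-104670476, GRCm38), the β chain of the vitronectin receptor, had the clearest order of groups. B6 CD4 libraries were highest with 177, 183 and 198 CPM, FlipFlop CD8 libraries had 120, 142 and 113, FlipFlop CD4 libraries 54.9, 69.0 and 42.3, and B6 CD8 libraries 30.2, 28.7 and 29.9. No neighbouring groups in this order overlapped, and each neighbouring pair differed in the fit, with adjusted p = 0.0123 for the first step, 3.78e-05 for the second and 0.00244 for the last. FlipFlop CD8 T cells thus stayed below B6 CD4 T cells, and FlipFlop CD4 T cells above B6 CD8 T cells. The first of these steps lost its call without FlipFlop CD8 replicate 3 (adjusted p = 0.0570). Itgb3 is also a platelet gene. No platelet marker was in the table, but the table had been filtered before deposit, and the part of platelets in the result was not tested.

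Itgb8 (chr12:119158022-119238802) encodes the β chain of the TGF-β-activating integrin and had the lowest level of the 9. FlipFlop CD8 libraries had 9.45, 11.7 and 13.3 CPM, and B6 CD4 libraries 1.43, 5.58 and 5.85. In B6 CD8 T cells it was at 0.225, 0.240 and 0.0331 CPM, and in FlipFlop CD4 T cells at 0.164, 0.0725 and 0.223. The lowest value of each of these 2 groups lay under the limit that a count of 0 allows, and their difference was not detectable at this depth, with an interval of -0.82 to 0.78 (log2). In reads, the 3 B6 CD4 libraries held 402 and the 3 B6 CD8 libraries 13, a ratio of 29.5 per read on the listed genes with an exact counting interval of 17.0 to 55.8, or 28.1 (16.2 to 53.2) with the TMM factors of the deposited table. The FlipFlop CD8 libraries held 1114 reads and the FlipFlop CD4 libraries 13, a ratio of 85.6 (49.9 to 161), or 75.6 (44.0 to 142) with the TMM factors. These intervals cover counting error only, and the B6 CD4 libraries differed from each other by more than counting, with 38, 173 and 191 reads.

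Itgav (chr2:83724397-83806916), the α chain that both pair with, was at 34.4, 38.2 and 40.5 CPM in FlipFlop CD8 T cells. The other groups overlapped each other, at 19.0, 29.2 and 27.6 in B6 CD4, 21.7, 21.6 and 26.8 in FlipFlop CD4 and 19.9, 23.0 and 19.5 in B6 CD8 T cells. Only FlipFlop CD8 T cells stood apart, and no test between 2 of the other groups was called with all libraries, while without B6 CD4 replicate 1 the B6 groups differed. Per kb, the ratio of Itgb3 to Itgav was 13.8 ± 2.8 (SD, n = 3) in B6 CD4, 6.07 ± 0.88 in FlipFlop CD8, 4.43 ± 1.47 in FlipFlop CD4 and 2.61 ± 0.30 in B6 CD8 T cells. Itgb8 made up 4.72% ± 1.03 of the sum of Itgb3 and Itgb8 per kb in FlipFlop CD8 and 1.19% ± 0.66 in B6 CD4 T cells, so that of these 2 β chains Itgb3 was the larger part in every group. The regulatory T cell marker sum took the same order of groups at the top as Itgb8 and Itgav, with FlipFlop CD8 T cells (1138 to 1328 CPM) above B6 CD4 T cells (476 to 571), and the part of these cells in the result was not tested. Lrrc32, which encodes GARP, the protein that holds latent TGF-β on regulatory T cells, was at a mean of 74.6 CPM in FlipFlop CD8, 28.3 in B6 CD4, 0.25 in FlipFlop CD4 and 0.17 in B6 CD8 T cells. Itgb3 did not share that order, being highest in B6 CD4 T cells. The exons of Itgav share 634 bases with Gm13684 on the other strand, a gene without a row here, and the counting is not stated to use strand, so the reads of this stretch cannot be placed with certainty.

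Itgb1 (chr8:128685654-128733200), the β chain shared by many matrix receptors, was set apart by 1 group. It was at 322, 299 and 246 CPM in FlipFlop CD8 T cells. B6 CD4 libraries had 134, 158 and 141 CPM, B6 CD8 libraries 121, 129 and 111, and FlipFlop CD4 libraries 118, 113 and 119. B6 CD4 T cells lay above both cytotoxic-lineage groups without overlap, but the test within B6 mice missed the threshold (adjusted p = 0.0796), and that against FlipFlop CD4 T cells passed it narrowly (0.0403). The cytotoxic-lineage groups overlapped, with a log2 interval of -0.26 to 0.18 for their difference. The step from B6 CD4 to FlipFlop CD8 T cells was a rise of 1.99-fold (log2 0.995 ± 0.10, adjusted p = 5.57e-05), and it was called under every alternative tried but 1, the threshold of over 5-fold, which it does not reach. The marker gene Cd44, which is high on memory and activated T cells, took the same order of groups, at 134 to 160 CPM in FlipFlop CD8, 68.9 to 95.2 in B6 CD4, 42.6 to 51.0 in B6 CD8 and 35.2 to 41.8 in FlipFlop CD4 T cells. The 9 memory or effector markers, of which Cd44 is 1, did not take this order together. As given above, their sum was highest in B6 CD8 and lowest in B6 CD4 T cells. The lineage effect called 2 of them higher and 2 lower, where 39.3% of all genes were called. The sum of 8 markers of naive T cells was lowest where Itgb1 was highest, at 3890 to 3940 CPM in FlipFlop CD8 T cells against 4574 to 5858 in the other groups. The part of memory, effector or naive cells in the Itgb1 result was not tested.

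Itgb7 (chr15:102215995-102231944), which competes with Itgb1 for the α4 chain, was not called in any of the 9 comparisons. B6 CD4 libraries lay at 942, 931 and 940 CPM, B6 CD8 libraries at 919, 982 and 915, FlipFlop CD4 libraries at 950, 876 and 804, and FlipFlop CD8 libraries at 896, 817 and 741. The FlipFlop CD8 values were all below both B6 groups, but neither test passed (adjusted p = 0.0961 against B6 CD4 and 0.0736 against B6 CD8). With a replicate block, the difference from B6 CD8 T cells and the strain effect were called. Without FlipFlop CD8 replicate 1 the strain effect and the differences of FlipFlop CD8 from both B6 groups were called, and without FlipFlop CD4 replicate 1 the strain effect was. Per kb, Itgb1 made up 19.3% ± 0.8 (SD, n = 3) of the sum of Itgb1 and Itgb7 in FlipFlop CD8 T cells, with 19.6%, 19.9% and 18.4% in the libraries. It made up 9.45% ± 0.80 in B6 CD4, 8.32% ± 0.73 in FlipFlop CD4 and 7.996% ± 0.344 in B6 CD8 T cells, 3 groups that lay between 7.60% and 10.3%. At the transcript level the β7 chain was therefore the larger part in all 12 libraries.

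Itga4 (chr2:79255426-79333123), the α chain for which β1 and β7 compete, was called in the strain effect and not in the lineage effect. B6 CD4 libraries had 156, 272 and 324 CPM and B6 CD8 libraries 265, 268 and 272. FlipFlop CD4 libraries had 362, 339 and 315 CPM and FlipFlop CD8 libraries 351, 347 and 408. The B6 CD4 libraries spanned all B6 CD8 values and the lowest FlipFlop CD4 value, and the low value was that of replicate 1. The strain effect was 0.47 ± 0.14 (log2, adjusted p = 0.0250), and among the pairs of groups with all libraries FlipFlop CD8 against B6 CD4 T cells alone was called. That call was lost in the fit of 6 libraries and without any 1 of 7, as given above. In fits of 6 libraries, and also without B6 CD4 replicate 1, both FlipFlop groups were called against B6 CD8 T cells. Reads cannot be placed with certainty for this gene, because 1124 bases of its exons are shared with Cerkl on the other strand and the counting is not stated to use strand. Cerkl itself was listed at 1.01 to 2.15 CPM.

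Itga6 (chr2:71745616-71858416), the laminin receptor chain, was lowest in B6 CD8 T cells, at 110, 105 and 98.5 CPM. FlipFlop CD4 libraries had 158, 199 and 160 CPM, B6 CD4 libraries 149, 195 and 203, and FlipFlop CD8 libraries 203, 238 and 212. B6 CD8 T cells differed from each other group, while the other neighbours in the order, FlipFlop CD4 with B6 CD4 and B6 CD4 with FlipFlop CD8 T cells, were not told apart by the test. Within the cytotoxic lineage Itga6 was 1.64-fold higher in FlipFlop than in B6 T cells on the fitted scale.

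The LFA-1 chains varied less. Itgal (chr7:127296260-127335138) was at 1041, 911 and 972 CPM in FlipFlop CD8 and 833, 766 and 886 in FlipFlop CD4 T cells, against 560, 832 and 817 in B6 CD4 and 666, 706 and 703 in B6 CD8 T cells. All FlipFlop CD8 libraries lay above the other 9, and the test called FlipFlop CD8 against each B6 group but not against FlipFlop CD4 T cells (adjusted p = 0.208). The call against B6 CD4 T cells was lost without any 1 of 4 libraries (adjusted p = 0.0560 to 0.0881), without eBayes and in the fit of 6 libraries. Itgb2 (chr10:77530252-77565708) was at 659, 745 and 639 CPM in the B6 CD4 libraries, with FlipFlop CD8 libraries at 708, 612 and 610, FlipFlop CD4 libraries at 602, 566 and 568, and B6 CD8 libraries at 583, 604 and 526. All 6 helper-lineage libraries lay above all 6 cytotoxic-lineage ones, a separation that 16.9% of all tested genes showed, and the lineage effect of 0.20 ± 0.06 (log2, adjusted p = 0.0203) is a change of 1.15-fold. No pair of groups was called for Itgb2 with all libraries, but the B6 difference, at an adjusted p of 0.0503, was called without B6 CD4 replicate 1, B6 CD4 replicate 3 or FlipFlop CD8 replicate 1, with the TMM factor taken out and with a replicate block. Its lineage effect lost the call without B6 CD4 replicate 2 or B6 CD8 replicate 3 (adjusted p = 0.0527 and 0.0574). The ratio of Itgal to Itgb2 per kb was 0.705 ± 0.031 (SD, n = 3) in FlipFlop CD8, 0.665 ± 0.052 in FlipFlop CD4, 0.565 ± 0.048 in B6 CD8 and 0.502 ± 0.101 in B6 CD4 T cells.

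Among the members, the closest profiles over the 12 libraries, which fall into 4 groups of 3, were those of Itgb1 with Itgb8 (Pearson r = 0.88 on log2 CPM) and of Itgav with Itgb1 and with Itgb8 (both 0.87). Of all genes averaging at least 10 CPM, the profiles most like that of Itgb3 were Rcan3 (0.99), Trib2 (0.98) and Rassf3 (0.98). Those most like Itgb8 were Zfp41 (0.99), Cpd (0.98) and Mdfic (0.98), and those most like Itgb1 were Calhm2, Tnfsf14 (both 0.98) and Syt11 (0.97). Itga6 was nearest to Tmem164, Ttyh3 and Erc1 (0.97 to 0.96), Itgav to Syne3, Bmpr2 and Rasa1 (0.97 to 0.96), and Itgb2 to Sirt2 (0.90), Spsb1 and Ucp2 (both 0.87). These are descriptions over 12 libraries.

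Of 17 further integrin subunit genes listed, 11 were in the table and 8 were tested, of which 6 were called in the lineage effect, where 39.3% of all genes were called (median log2 0.79 over the 8 and -0.03 over all tested genes). Of these 8, Itga7, Itga9 and Itgam reached 1 CPM in 3 libraries of the helper lineage alone. Itgax reached it in those of the cytotoxic lineage alone. The filter thus favoured a difference in these genes, and the median of 0.79 includes them. Of the other 4, with effects from -1.18 to 0.87, 3 were called, 2 higher and 1 lower. Itga7 (2.44 ± 0.13) and Itga9 (1.57 ± 0.16), α chains of a laminin and a tenascin receptor, Itgam (1.42 ± 0.13), an LFA-1 relative of myeloid cells, and the collagen and laminin receptor chains Itga2 (0.87 ± 0.15) and Itga3 (0.71 ± 0.13) were higher in the helper lineage, although none of their group means exceeded 9.82 CPM. Itgae, the αE chain that joins β7 to bind E-cadherin, was lower (-1.18 ± 0.20), at means of 225 ± 53 CPM (SD, n = 3) in B6 CD8, 79.8 ± 31.3 in FlipFlop CD4, 86.6 ± 11.8 in FlipFlop CD8 and 39.1 ± 13.7 in B6 CD4 T cells. Its CD4 to CD8 difference was called in B6 (-2.54 ± 0.29) and not in FlipFlop mice (-0.18 ± 0.29, interval -0.81 to 0.44), and FlipFlop CD4 T cells had less of it than B6 CD8 T cells (-1.54 ± 0.29). Itgax (-0.66 ± 0.29) and Itga5 (-0.04 ± 0.13) were not called in the lineage effect. Itgb5, another partner of αv, did not pass the filter, with group means of 0.99 CPM in FlipFlop CD8, 0.76 in B6 CD4, 0.063 in B6 CD8 and 0.023 in FlipFlop CD4 T cells. Itga1 and Itgad were also in the table and below the filter.

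**Figure D5:**
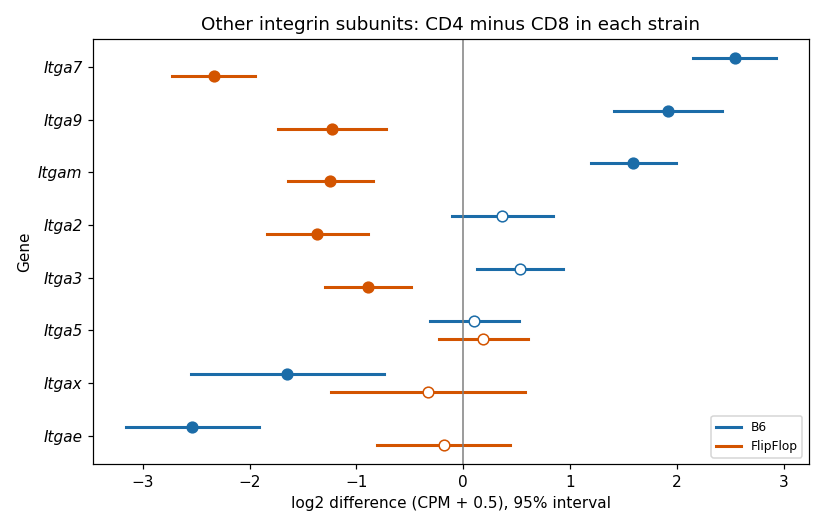
Log2 difference (CPM + 0.5) between CD4 and CD8 T cells for the 8 other integrin subunit genes tested, in B6 (blue) and FlipFlop mice (orange), with 95% intervals and filled points for an adjusted p under 0.05. Itga7, Itga9 and Itgam lie on opposite sides of 0 in the 2 strains, whereas Itgae lies at -2.54 in B6 and -0.18 in FlipFlop mice.

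Of 42 listed adaptors and regulators of integrin activation, 35 were tested, and the lineage effect called 8 as higher and 8 as lower in the helper lineage (median log2 -0.05), a share near the 39.3% of all genes. Src passed the filter through helper-lineage libraries alone and so had to differ, and without it 7 were higher and 8 lower of 34. The effect of this kinase gene was 2.92 ± 0.13, from means of 9.33 CPM in FlipFlop CD8 and 4.71 in B6 CD4 to 0.50 in FlipFlop CD4 and 0.39 in B6 CD8 T cells. Zyx, which encodes zyxin of focal adhesions, was lower at -0.99 ± 0.07, with means of 300 CPM in B6 CD8 and 266 in FlipFlop CD4 against 142 in B6 CD4 and 143 in FlipFlop CD8 T cells. Vcl (vinculin, 0.49 ± 0.15), Cytip (0.41 ± 0.06), Rsu1 (0.39 ± 0.05) and Skap2 (0.32 ± 0.08) were higher. The coreceptor effect called 1 of the 35, against 5.49% of all genes.

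Of 30 listed ligands and membrane partners, 19 were in the table and 16 were tested, with 7 called higher and 5 lower in the helper lineage (median log2 0.05), where 39.3% of all genes were called. Lrrc32, Vcam1 and Fn1 (fibronectin) reached 1 CPM in 3 libraries of the helper lineage alone, and without them 5 were higher and 5 lower of 13. Lrrc32 (6.03 ± 0.11), already described, and the tetraspanin genes Cd81 (3.21 ± 0.09) and Cd9 (0.93 ± 0.10) were higher, as was Vcam1 (1.04 ± 0.16), the ligand of α4β1, at a highest group mean of 1.42 CPM. Cd226 (-1.38 ± 0.13), a partner of LFA-1, was lower, and so was Cdh1 (-1.46 ± 0.18), which encodes the αE ligand E-cadherin. Cdh1 was at a mean of 8.63 CPM in B6 CD8 T cells and at 1.58 or less in the other groups, and like Itgae it was lower in FlipFlop than in B6 cells of the cytotoxic lineage (log2 -2.14 ± 0.26).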

How the data were processed

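RNA was measured in 12 libraries of sorted LN T cells, 4 groups of 3. Per the paper's methods the authors made libraries with a low-input kit and aligned paired-end reads to mm10 with STAR, whereas the submitters' processing notes name Trimmomatic and TopHat. The program that counted reads and its strand setting are not given in the sources used here. The authors deposited 1 table of normalized signal, CPM with each library's TMM factor divided out, already filtered to 12809 genes. All gene identifiers matched GENCODE M21, from which positions and exon lengths were taken.

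Genes were tested if 3 or more libraries reached 1 CPM, which left 11595. On the log2(CPM + 0.5) scale they entered a limma model (version 3.58.1 in R 4.3.3; lmFit, contrasts.fit and eBayes with a trend), with 1 mean per group and no replicate block. Adjusted p-values are Benjamini-Hochberg over all tested genes. The value of 1 read was read from the steps between low values. Whole reads made up 84.8% to 86.4% of low values, less than the 95% required, so no count model was used. Itgb8 was compared by the reads recovered this way, which were whole.

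Deviations of same-numbered CD4 and CD8 libraries from their group means correlated at 0.44, 0.27 and 0.51 in FlipFlop mice, each over 0.1. These libraries were therefore taken as paired, though no source names what they share. The pairing enters the replicate block alone, and the main fit does not use it. In B6 mice the correlations were 0.18, 0.09 and 0.35. Alternatives were 2 other pseudocounts, 2 other filters, 2 other scalings, no eBayes, fits of 6 libraries, a replicate block, 2 other thresholds and the omission of each library. The members and lists were chosen with earlier results of these data known. All 9 members and all other integrin subunits of the table were named, with at most 6 genes of each adaptor or ligand list by the size of the lineage effect among those called, and 3 genes by likeness for each member called in that effect. Genes given as a check of labels or as markers were named apart from this rule, and Fn1 was named after its values were seen. A ninth marker of naive T cells is not reported here. The fit was tested on simulated data. Figures were drawn with matplotlib 3.10.9.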

Additional observations from a re-analysis of the deposited data

Results flagged for a closer look

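For 6 of the 9 integrin genes the CD4 to CD8 difference differed between B6 and FlipFlop mice, which is the lineage effect written as the B6 difference minus the FlipFlop difference (limma, log2 scale). That value was 6.87 ± 0.52 (SE) for Itgb8 (adjusted p = 4.35e-07), 3.82 ± 0.20 for Itgb3 (1.62e-08), 1.56 ± 0.14 for Itgb1 (2.24e-06), 1.13 ± 0.17 for Itga6 (0.000203), 0.94 ± 0.21 for Itgav (0.00333) and 0.40 ± 0.12 for Itgb2 (0.0203). Itgb8 passed the filter on low values only through the groups where it is high and so had to differ, and without it the count was 5 of 8. In the fitted values all 6 genes leaned to CD4 T cells in B6 and to CD8 T cells in FlipFlop mice.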

How the results depend on the processing

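All 38 called differences of a member in a comparison kept their direction under every alternative tried, while 18 of the 43 that were not called changed sign in at least 1. With the TMM factor taken out the count of called members was 5 in B6 and 7 in FlipFlop mice (CD4 against CD8). Of all genes 25.9% and 32.4% were called there. That scaling moved the median of all genes by over 0.1 (log2) in 5 comparisons, to 0.093 in the lineage effect, -0.14 for CD4 against CD8 in FlipFlop mice, 0.15 for the helper-lineage groups (FlipFlop minus B6), 0.20 for the CD8 groups and 0.10 in the strain effect. The share of called genes that were higher went from 57.3% to 69.7% in B6, from 49.0% to 20.8% in FlipFlop mice, from 50.6% to 75.6% in the lineage effect, from 31.1% to 16.2% in the coreceptor effect, from 50.5% to 81.1% in the strain effect, from 47.8% to 83.9% between the helper-lineage groups and from 47.7% to 80.1% between the CD8 groups. It also turned values that were not called, Itgb7 to 0.066 in B6, -0.075 in FlipFlop mice and 0.071 in the lineage effect, and Itga4 to 0.10 in the lineage effect. With a replicate block 5 members were called in B6, where numbers do not pair the libraries by the rule used, 5 in FlipFlop mice, 6 in the lineage and 7 in the strain effect. The share of all genes called rose as well, to 30.0%, 36.4%, 44.5% and 37.0% in the same order. The block added Itgb1 and Itgb2 in B6, Itga6 in FlipFlop mice, Itgb7 in the strain effect and between the CD8 groups and Itgb2 between the CD4 groups, and changed no other call of a member. Without eBayes the strain effect called 3, against 25.5% of all genes. A fit of 6 libraries called 2 in FlipFlop CD8 against B6 CD4 T cells, and it added Itga6 in FlipFlop mice (5) and Itga4 between the cytotoxic-lineage groups (3) and between the CD8 groups (7). Of all genes these fits called 12.9%, 33.3%, 8.99% and 51.2% in the same order. Genes averaging at least 5 CPM leave out Itgb8. At an adjusted p under 0.01, which also calls fewer of all genes, the strain effect called 2 members and FlipFlop CD8 against B6 CD4 T cells 1. The threshold of the methods, an unadjusted p under 0.05 and over 5-fold, called 2 members in B6, Itgb3 and Itgb8, and 1, Itgb8, in FlipFlop mice, in the lineage effect and in each comparison of groups with the same coreceptor, where it called 1.57%, 2.21%, 1.61%, 1.47% (CD4) and 3.04% (CD8) of all genes, and Itgb8 had to differ in each by the filter. It called 0 in the coreceptor and strain effects and in both comparisons within a lineage.

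With each library left out in turn, the count of called members ranged from 3 to 7 in B6, 4 to 6 in FlipFlop mice, 5 to 7 in the lineage effect, 2 to 3 in the coreceptor effect, 3 to 6 in the strain effect, 2 to 4 between the cytotoxic-lineage groups, 1 to 6 between the helper-lineage groups, 2 to 3 between the CD4 groups and 6 to 7 between the CD8 groups. The share of all genes called moved too. In the same order it ranged from 19.4% to 27.7%, 23.5% to 38.2%, 34.2% to 45.2%, 3.07% to 5.23% and 20.7% to 34.7%. For the pairs of groups it ranged from 4.24% to 13.6%, 13.3% to 32.4%, 21.8% to 29.9% and 35.1% to 52.8%. The B6 value of Itga4, not called, ranged from -0.38 to 0.14, that of Itgal from -0.032 to 0.25, that of Itgb7 from -0.019 to 0.032, and the lineage effect of Itga4 from -0.13 to 0.13. The cause of these shifts was not tested. Depth limits Itgb8 in the cytotoxic-lineage groups, where a library held 1 to 6 reads.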
